A study of Mus musculus with 20 samples.

Results

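Gene expression in grafted CD8+ effector T cells taken from the small intestine was compared with that in the same kind of cells taken from the lung, in mice in which the graft attacks the host (lethal acute graft-versus-host disease). The comparison used 9 of the 20 arrays of the series, small intestine 1 to 4 and lung 1 to 5. They were chosen by site, and the fifth small intestine array was left out on measured values, because it lacks intestinal transcripts. Recipients were female C57Bl/6 mice of 8 to 16 weeks carrying the m-act OVA transgene, in which a CAG promoter drives ovalbumin throughout the body, and they received 11 Gy of total body irradiation. Each received bone marrow cells and splenocytes from OT-I donors, whose transgenic T cell receptor recognises an ovalbumin peptide. The OT-I CD8+ T cells carried the CD45.1 allele, while the other graft cells and the recipients carried CD45.2. All groups share this transplant, and none was left without disease. On day 4 the cells were recovered from both organs by magnetic selection for CD45.1, without a second purification step in the labels, and their RNA was amplified over several rounds before hybridisation to 1-colour Agilent arrays. The other 11 arrays are the fifth small intestine array, 5 of liver and 5 of peripheral blood. Which animals stand behind which array is not in the labels, and the p-values therefore reflect array-to-array spread, part of which may be technical.

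Effector CD8+ T cells leave lymphoid tissue through the blood and enter organs with the help of selectin ligands, integrins and chemokine receptors, and cells that settle lower the genes of recirculation. The small intestinal wall holds Paneth cells at the base of the crypts, which secrete alpha-defensins and other antimicrobial proteins, and plasma cells that secrete dimeric immunoglobulin A. The air spaces of the lung hold alveolar macrophages, which clear the surfactant made by epithelial cells. Transcripts of these resident cells can be carried along when T cells are selected from digested tissue.

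The signal at the 75th percentile of an array ran from 839 to 2097 on small intestine 1 to 4 and from 830 to 2015 on lung 1 to 5, and between 23.5% and 32.6% of the probes of these 9 arrays lay well above background. All levels below are log2 signals relative to that percentile, and a difference is small intestine minus lung. The label of T cells held on both sides: Cd3e, a chain of the T cell receptor complex, averaged 5.47 ± 0.84 (SD, n = 4) in small intestine and 6.07 ± 0.29 (n = 5) in lung, and Cd8a averaged 3.46 ± 1.23 and 3.82 ± 0.53 in the same order. The 21 measured genes of the T cell receptor complex and CD8 averaged 3.68, 3.01, 4.83 and 2.80 on small intestine 1 to 4, against 4.32, 4.18, 4.50, 3.75 and 4.40 on lung 1 to 5. Small intestine 3 was above every lung array, and the other 3 small intestine arrays were below every lung array. In such bulk samples, fewer T cells and less RNA per T cell cannot be told apart.

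The arrays also differed in the level of transcripts typical of the surrounding organ, and how these entered the samples was not tested. Paneth cell markers (10 measured genes) averaged 3.48, 4.58, 0.51 and 5.48 on small intestine 1 to 4 and lay between -1.49 and -0.45 on the lung arrays. On the array labelled small intestine 5 they averaged -2.95, and such transcripts chose the arrays, with 0.51 on small intestine 3 the nearest level kept. On the array labelled liver 5 they averaged 1.78, whereas liver 1 to 4 lay between -2.23 and -1.87. Over all genes tested, liver 5 had a mean correlation of 0.901 with small intestine 1 to 4 and of 0.887 with lung. With small intestine 1 to 4, liver 1 to 4 had between 0.816 and 0.841, and small intestine 5 had 0.814. Small intestine 1 to 4 had between 0.835 and 0.905 among themselves. Monocyte and macrophage markers (9 genes) averaged 4.55, 4.76, 0.31 and 1.15 on small intestine 1 to 4. On lung 1 to 5 they averaged 2.76, 2.59, 0.55, 4.34 and 3.76, so small intestine 1 and 2 lay above every lung array. Alveolar macrophage markers (17 genes) averaged 2.49, 2.34, -1.74, 4.74 and 3.80 on lung 1 to 5, so lung 3 lay apart from the other 4 lung arrays and within the range of small intestine 1 to 4, from -1.92 to -0.04. Results that rest on small intestine 5 or lung 3 are therefore given with and without them.

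**Figure D1:**
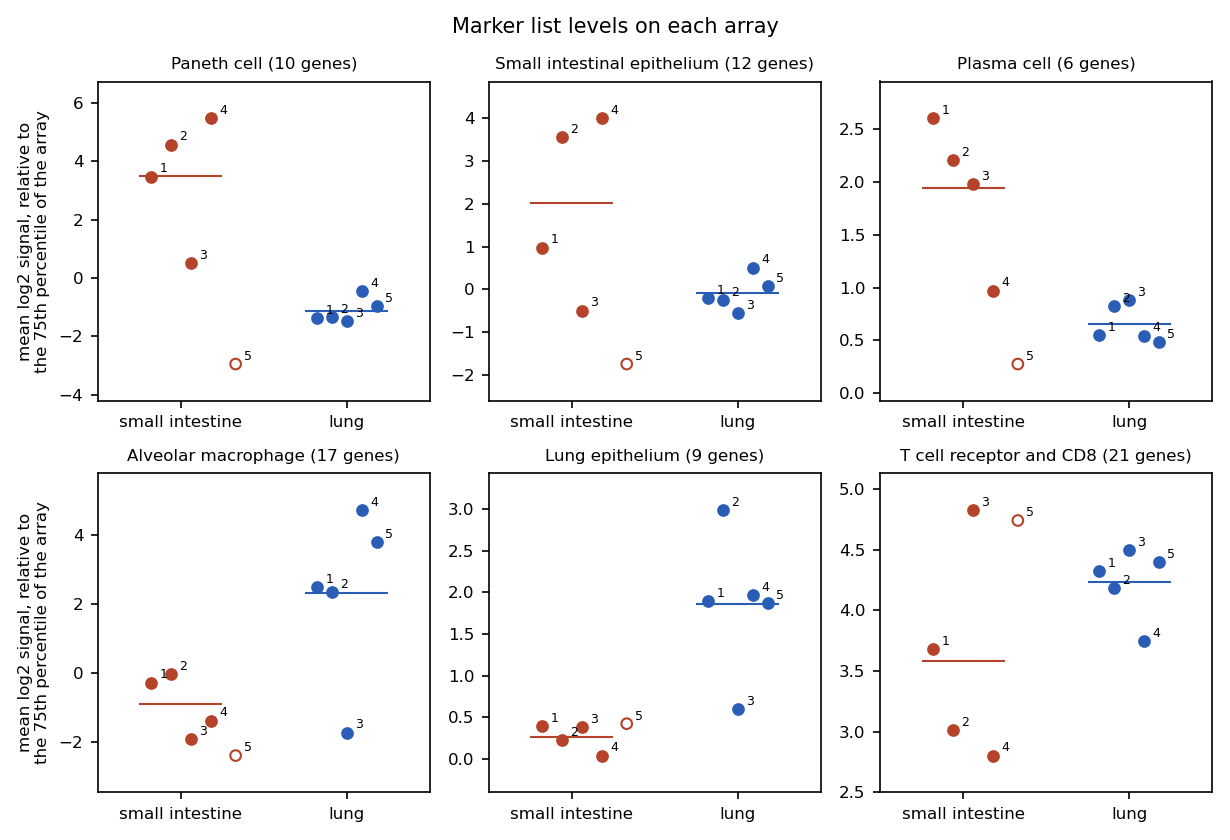
Mean log2 signal of 6 marker lists on each array of small intestine (left, with array 5 as an open circle) and lung (right), each point numbered by its array, with a bar at the mean of small intestine 1 to 4 or lung 1 to 5. Small intestine 1 to 4 lie above lung for the Paneth and plasma cell lists, the plasma cell list through the gene Jchain. For the epithelial list small intestine 3, at -0.49, lies among the lung arrays. The 2 lung lists are lowest on lung 3 among the lung arrays.

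The intestinal transcripts that set small intestine 1 to 4 apart were led by the alpha-defensins, the peptides that Paneth cells release against bacteria. Their mouse genes lie in a cluster on chromosome 8 and are close copies of one another, so a probe may also catch RNA of its neighbours. The upstream sequences of 3 of them are shown because these genes moved together and read almost alike. They come from the RefSeq promoter table of build GRCm38.p6, which held 5 of the 10 alpha-defensins named below, and each ends at the base before the annotated start. Capitals mark TATAAA, the core of a TATA box, searched on both strands in the 250 bases upstream. All 5 matched alpha-defensins held it there, and so did 13% of the 27025 promoters of the table.
Defa42, chr8:21456518-21456637, minus strand: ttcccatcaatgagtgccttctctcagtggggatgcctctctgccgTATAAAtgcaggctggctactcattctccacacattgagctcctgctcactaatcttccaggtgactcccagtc
Defa38, chr8:21096051-21096170, minus strand: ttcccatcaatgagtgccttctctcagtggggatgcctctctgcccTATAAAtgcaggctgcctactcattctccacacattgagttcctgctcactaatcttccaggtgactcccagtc
Defa23, chr8:21054920-21055039, plus strand: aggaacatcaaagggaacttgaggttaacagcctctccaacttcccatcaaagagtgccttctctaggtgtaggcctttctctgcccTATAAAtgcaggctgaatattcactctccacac

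Because the choice of arrays used intestinal transcripts, their levels are a description, with no test. Defa42 had 6.20, 7.15, 2.79 and 7.81 on small intestine 1 to 4, against -2.78, -3.06, -2.08, -2.14 and -2.67 on lung 1 to 5. It was not well above background on any lung array, so that it was at least 89.5-fold higher in small intestine. Such a bound divides the mean of the bright site by a limit for the dim site, which on each of its arrays is the probe's own signal or the weakest signal well above background, whichever is more. Defa38 had 6.44, 7.36, 3.20 and 7.78 on small intestine 1 to 4, against -1.11, -0.66, -0.44, 0.57 and 0.19 on lung 1 to 5. Defa23 had 7.20, 7.87, 5.42 and 8.30 in small intestine, against -0.18, 0.65, 0.24, 1.75 and 0.56 in lung. On all 3 genes small intestine 4 was highest and small intestine 3 lowest, and no small intestine array reached down to the lung arrays. The array labelled small intestine 5 had -3.93 for Defa42, -2.06 for Defa38 and -0.91 for Defa23.

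Among 13 measured alpha-defensins, 10 had an adjusted p under 0.05 with limma, which adds nothing here for the reason given. Other secreted products of the crypt followed them. Itln1, a lectin of Paneth and goblet cells that binds microbial sugars, had 5.70, 6.72, 1.89 and 7.14 in small intestine and was not well above background on any lung array, which makes it at least 58.0-fold higher. Reg3g, a lectin that epithelial cells secrete against gram-positive bacteria, had 2.05, 3.62, -0.24 and 5.93 and was at least 10.1-fold higher. Among epithelial genes, Lgals4 (galectin 4) had 2.36, 5.59, 0.55 and 6.46 in small intestine, against a highest lung value of -0.61. Muc13, a membrane mucin, had 0.78, 3.70, -2.96 and 3.96, and Tff3, a goblet cell peptide, had 1.46, 4.39, -2.73 and 4.63. For the last 2 genes small intestine 3 was as low as the lung arrays. None of the 12 enteroendocrine markers was bright enough on either site to be tested.

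On the lung side the largest differences lay in genes of alveolar macrophages and surfactant, and 1 array decided whether they passed. Chil3, a chitinase-like protein that alveolar macrophages express at a high level, had -2.91, -2.54, -2.72 and -2.41 on small intestine 1 to 4, against 6.72, 6.48, -2.10, 8.26 and 7.83 on lung 1 to 5. Ear1, an eosinophil-associated ribonuclease of those macrophages, had between -3.01 and -2.55 in small intestine, against 3.75, 3.09, -2.30, 6.34 and 5.46 in lung. Sftpc, the surfactant protein C of alveolar type 2 cells, had between -0.69 and -0.31 in small intestine, against 4.61, 6.98, -0.16, 5.33 and 4.52 in lung. In each case 4 lung arrays were well above background, and lung 3 and the small intestine arrays were not.

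None of the 17 alveolar macrophage genes and none of the 9 lung epithelium genes passed an adjusted p of 0.05 over the 9 arrays. Chil3 was at least 63.2-fold lower in small intestine (limma, adjusted p = 0.0914), Ear1 at least 14.0-fold lower (adjusted p = 0.110) and Sftpc at least 25.4-fold lower (adjusted p = 0.123). Without lung 3 the difference was -9.97 for Chil3, -7.46 for Ear1, -5.79 for Sftpc, -7.01 for Krt79 (a keratin on the macrophage list), -3.78 for Sftpd (surfactant protein D) and -3.42 for Sftpa1 (surfactant protein A). These 6 genes then passed the threshold, but lung 3 was set apart by its low level of such transcripts, so these values are a description and no test. The median difference of the macrophage list was -3.30 and that of the lung epithelium list -0.88, against -0.15 over all genes tested. Both lists could reach the test through lung alone, since 8 of the 17 and 3 of the 9 genes were not well above background on any small intestine array.

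Over all 7170 genes tested, 33 passed the threshold (limma with Benjamini-Hochberg adjustment, 0.46% of the genes), 18 higher in small intestine (0.251%) and 15 lower (0.209%). An unadjusted p under 0.05 was found for 626 genes. Of the 18 higher genes, 12 were the intestinal transcripts described above (10 alpha-defensins, Itln1 and Reg3g), which left 6 others. Of those 6, 4 were not well above background on any lung array, and 8 of the 15 lower genes were not on any small intestine array, so these entered the test through 1 site alone, the one where they are high. Their p-values set signal against values not well above background and are given as a description. All 4 small intestine arrays lay above all 5 lung arrays for 67 genes (0.934%) and below all of them for 160 (2.23%), and all 33 called genes were among these. The median difference moved from -0.15 to 0.05 when the scaling percentile was taken over the 7384 probes that all 9 arrays measured well above background, and the calls were then 16 higher and 8 lower. Without lung 3, 47 genes passed (16 higher, 31 lower), 25 of them among the 33. With the array labelled small intestine 5 included, 0 genes passed (425 at an unadjusted p under 0.05). With the replicate number as a block, 22 genes passed, 18 of them among the 33.

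Single arrays decided part of the calls. Of the 21 called genes other than intestinal transcripts, 9 passed whichever array was left out: Jchain, Gjb2, Chac1, Dusp7, Sh2d3c, Fam53b, Klhl36, Osbpl5 and Trim21. Osbpl5 alone among these was well above background on arrays of both sites. The rest entered the test through 1 site, so passing here adds no support for them. The other 12 of the 21 lost the call without at least 3 of the 9 arrays, taken singly. Their highest adjusted p was 0.0673 for Ramp3, 0.0777 for Fut7, 0.0777 for Kbtbd11, 0.103 for Ccnd3, 0.114 for Depdc1b, 0.123 for Tent5a, 0.141 for Phf11a, 0.177 for Arhgef18 and 0.180 for Coro2b without small intestine 2. It was 0.102 for Klf10 and 0.146 for Pigv without lung 5, and 0.105 for Pde5a without lung 1.

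**Figure D2:**
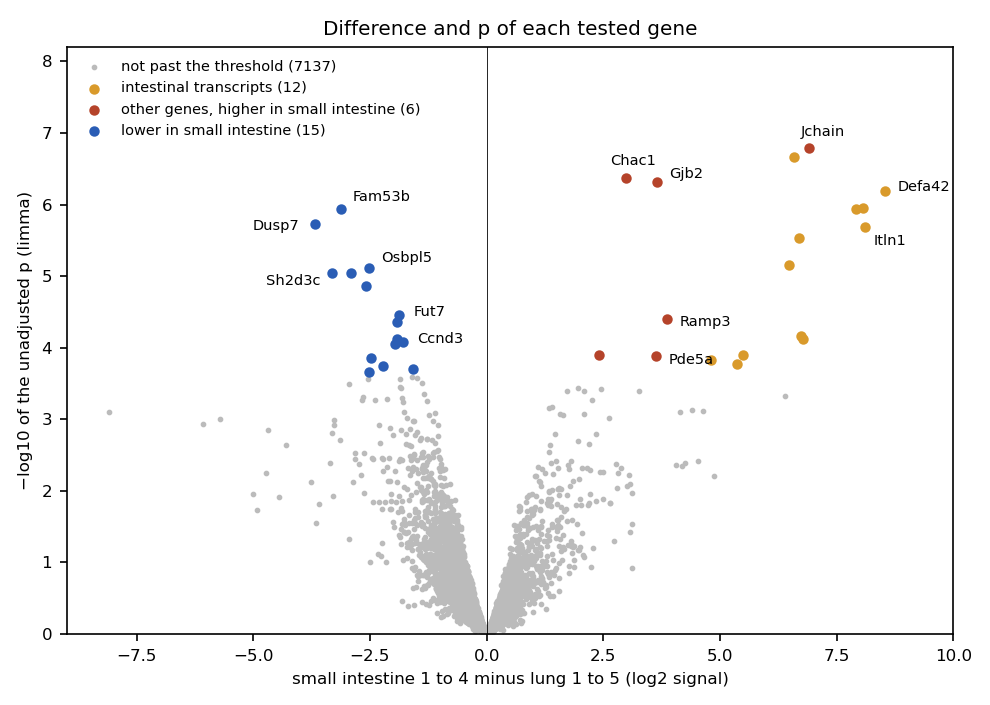
Difference in log2 signal, small intestine 1 to 4 minus lung 1 to 5, against the negative log10 of the unadjusted limma p for 7170 genes. Coloured points passed an adjusted p of 0.05: 12 intestinal transcripts, 6 other genes higher in small intestine and 15 lower. The uncalled points far to the left are alveolar macrophage and surfactant genes.

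Jchain had the smallest p of the 6 other higher genes. It encodes the joining chain that links immunoglobulin A and M into polymers in plasma cells. It had 5.72, 5.37, 4.52 and 2.43 on small intestine 1 to 4, against -2.67, -2.88, -1.98, -1.98 and -2.43 on lung 1 to 5. It was not well above background on any lung array and was at least 32.2-fold higher in small intestine (adjusted p = 0.000776). Its order over the small intestine arrays differed from that of the alpha-defensins, with small intestine 4 lowest, but like them it was low on the array labelled small intestine 5 (-3.75) and high on the array labelled liver 5 (4.33). Jchain entered the test through small intestine alone, and it was low on the array that was left out, so its p adds no support. The 6 measured plasma cell markers averaged between 0.97 and 2.60 on small intestine 1 to 4 and between 0.48 and 0.88 on the lung arrays, and Jchain was the 1 member that passed. Jchain, with a difference of 6.90, carried that separation, since the list median was 0.75. The averages of the other members overlapped between the sites. Sdc1, the plasma cell surface proteoglycan syndecan 1, averaged 1.05 ± 0.68 in small intestine and -0.41 ± 0.32 in lung (adjusted p = 0.132). Irf4, which plasma cells and activated T cells both need, pointed the other way, with -0.96 ± 0.74 in small intestine and 1.58 ± 0.84 in lung (adjusted p = 0.0537), and it passed with the replicate block (adjusted p = 0.0420). The part of plasma cells in the other differences was not tested.

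Gjb2, which encodes the gap junction protein connexin 26, had 1.52, 1.05, 1.52 and 0.34 in small intestine, against values between -3.05 and -2.04 in lung. It was at least 3.04-fold higher (adjusted p = 0.000861). Ramp3, a partner protein of the calcitonin receptor-like receptor, had 5.19, 4.75, 6.08 and 3.19 in small intestine, against 1.41, 1.35, 1.81, -0.12 and 0.24 in lung. The mean difference was 3.86 with an SE of 0.58, or 14.6-fold (adjusted p = 0.0160). Ramp3 stood on the endothelial list, and no other of its 10 measured members passed: Flt1, a receptor for vascular growth factor, averaged -1.27 ± 1.41 in small intestine and 1.55 ± 1.24 in lung (adjusted p = 0.187), and with the replicate block it passed as lower (adjusted p = 0.0303).

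Pde5a, the phosphodiesterase that degrades cyclic GMP and is abundant in smooth muscle, had 0.53, 3.50, -0.11 and 1.31 in small intestine, against values between -3.05 and -1.80 in lung. It was at least 3.49-fold higher (adjusted p = 0.0343), but it did not pass with the replicate block (adjusted p = 0.113). The 4 measured fibroblast and muscle markers averaged 1.50, 2.99, -0.89 and 1.34 on small intestine 1 to 4. On lung 1 to 5 they lay between -1.23 and 1.42, and the part of such cells was not tested. Tent5a, a poly(A) polymerase that lengthens messenger RNA tails, had 1.97, 1.84, 2.75 and 1.10 in small intestine, against 0.34, -0.26, -1.44, -0.71 and -0.41 in lung. Its difference was 2.41 with an SE of 0.42 (adjusted p = 0.0343, and 0.113 with the block). Ramp3 and Tent5a were highest on small intestine 3, the array with the lowest Paneth cell level of the 4.

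Chac1 was the sixth of these genes. Its enzyme degrades glutathione, and its transcription is known to be driven by ATF4 when proteins misfold in the endoplasmic reticulum or amino acids run short. It had 0.66, 0.32, 0.43 and 0.75 on small intestine 1 to 4, against -2.68, -2.93, -2.12, -1.96 and -2.58 on lung 1 to 5. The small intestine values ran from 0.32 to 0.75, and Chac1 was not well above background on any lung array. It was at least 2.05-fold higher in small intestine (adjusted p = 0.000861). On the array labelled small intestine 5 it had -3.88. On liver 3 it had 0.31, near the small intestine values, and on liver 1, 2 and 4 between -3.11 and -2.89.

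The heat shock and unfolded protein response list held 19 measured genes, and Chac1 was the 1 that passed. Against 0.934% of all genes, 3 of the 19 had all small intestine arrays above all lung arrays. Beside Chac1 these were Trib3, a pseudokinase that ATF4 induces, and Hspa5, the chaperone BiP of the endoplasmic reticulum. Trib3 had 1.30, 1.01, 2.35 and 1.26 in small intestine, against 0.69, 0.05, 0.19, -0.11 and 0.88 in lung (adjusted p = 0.253). Hspa5 had 6.94, 7.15, 7.80 and 6.89 in small intestine, against 6.48, 6.50, 6.55, 6.67 and 6.61 in lung (adjusted p = 0.494). The median difference of the list was 0.33, which is 0.48 above that of all genes.

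Upstream sequences of Chac1 and Hspa5 are shown because both genes lay wholly above lung and are known targets of stress factors. They are the 250 bases before the annotated start in the RefSeq table of build GRCm38.p6. In Chac1 the capitals mark TGATGNAA, a form of the element bound by ATF4 with a C/EBP partner, which here reads on the opposite strand. It was found on either strand in 3.53% of the 27025 promoters, and in 3 of 8 stress genes searched (Chac1, Herpud1 and Asns). In Hspa5 the capitals mark CCAAT and CCACG with 9 bases between them, the endoplasmic reticulum stress element. This pair was found in 0.122% of the promoters and in Hspa5 alone of the 8 genes. A match describes the letters only.
Chac1, chr2:119350992-119351241, plus strand: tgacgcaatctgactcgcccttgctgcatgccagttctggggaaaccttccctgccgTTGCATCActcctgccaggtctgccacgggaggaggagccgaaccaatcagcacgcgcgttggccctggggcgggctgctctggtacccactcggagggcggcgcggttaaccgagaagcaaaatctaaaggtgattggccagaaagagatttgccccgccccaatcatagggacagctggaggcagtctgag
Hspa5, chr2:34771840-34772089, plus strand: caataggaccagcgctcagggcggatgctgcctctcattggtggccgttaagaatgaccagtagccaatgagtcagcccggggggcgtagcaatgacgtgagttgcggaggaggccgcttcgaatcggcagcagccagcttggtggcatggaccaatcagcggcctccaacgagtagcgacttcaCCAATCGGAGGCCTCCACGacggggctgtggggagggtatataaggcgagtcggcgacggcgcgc

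The 15 genes that were lower in small intestine included regulators of signalling. Dusp7, a phosphatase that switches off the kinase ERK, had -2.87, -2.52, -2.71 and -2.38 on small intestine 1 to 4, against 0.93, 0.82, 2.18, -0.03 and 1.37 on lung 1 to 5. It was not well above background on any small intestine array and was at least 3.03-fold lower there (adjusted p = 0.00146). Sh2d3c, an adaptor that links receptors to integrin activation in T cells, had -0.96, -1.28, -1.48 and -2.49 in small intestine, against 1.74, 2.53, 1.61, 0.71 and 2.18 in lung. It was at least 4.92-fold lower (adjusted p = 0.00432). Fam53b, whose fish homologue helps beta-catenin enter the nucleus, had -0.74, -1.77, -1.49 and -2.03 in small intestine, against 1.73, 1.67, 1.18, 1.43 and 2.10 in lung, and was at least 4.49-fold lower (adjusted p = 0.00105). Trim21, a ubiquitin ligase that binds antibody-coated pathogens in the cytosol, was at least 1.96-fold lower (adjusted p = 0.00609, and 0.0644 with the replicate block).

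Genes of trafficking and of the cytoskeleton were also among the 15. Fut7, the fucosyltransferase that completes selectin ligands on T cells, had 0.57, -0.06, 0.90 and 0.38 in small intestine, against 2.07, 2.20, 2.20, 2.92 and 2.41 in lung. The difference was -1.92 with an SE of 0.29, or 3.77-fold (adjusted p = 0.0164, and 0.0795 with the block). Arhgef18, an exchange factor that activates the GTPase RhoA, averaged 0.15 ± 0.27 in small intestine and 1.73 ± 0.40 in lung (adjusted p = 0.0447, and 0.0716 with the block). Coro2b, a coronin that binds actin, was at least 1.79-fold lower (adjusted p = 0.0482, and 0.124 with the block). Fut7 was low on all 4 small intestine arrays, and its value of 1.24 on the array labelled small intestine 5 also lay below every lung array.

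Ccnd3, the cyclin D3 that carries lymphocytes through G1, had 2.01, 2.02, 2.47 and 1.62 in small intestine, against 4.46, 4.12, 4.27, 3.35 and 3.60 in lung. It was 3.81-fold lower, with a difference of -1.93 and an SE of 0.31 (adjusted p = 0.0246). Depdc1b, a protein that acts at entry into mitosis, averaged -0.10 ± 0.36 in small intestine and 1.70 ± 0.38 in lung (adjusted p = 0.0259, and 0.121 with the block). Klf10, a transcription factor induced by TGF-beta, averaged 0.44 ± 0.66 and 2.41 ± 0.18 in the same order (adjusted p = 0.0262, and 0.113 with the block). These 3 genes differed by between 1.80 and 1.97 log2 units.

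Of the other lower genes, Osbpl5, which moves lipids between the endoplasmic reticulum and the plasma membrane, had 0.99, 0.77, 1.54 and 0.15 in small intestine, against 3.17, 3.03, 3.61, 3.71 and 3.43 in lung. It was 5.76-fold lower (adjusted p = 0.00423). Kbtbd11 averaged 3.04 ± 0.38 in small intestine and 4.91 ± 0.28 in lung (adjusted p = 0.0148). Klhl36 was at least 1.92-fold lower (adjusted p = 0.00432). Both encode proteins with kelch repeats. Pigv, a mannosyltransferase of glycolipid anchor synthesis, was at least 2.37-fold lower (adjusted p = 0.0420, and 0.129 with the block), and Phf11a at least 2.02-fold lower (adjusted p = 0.0356, and 0.0518 with the block).

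**Figure D3:**
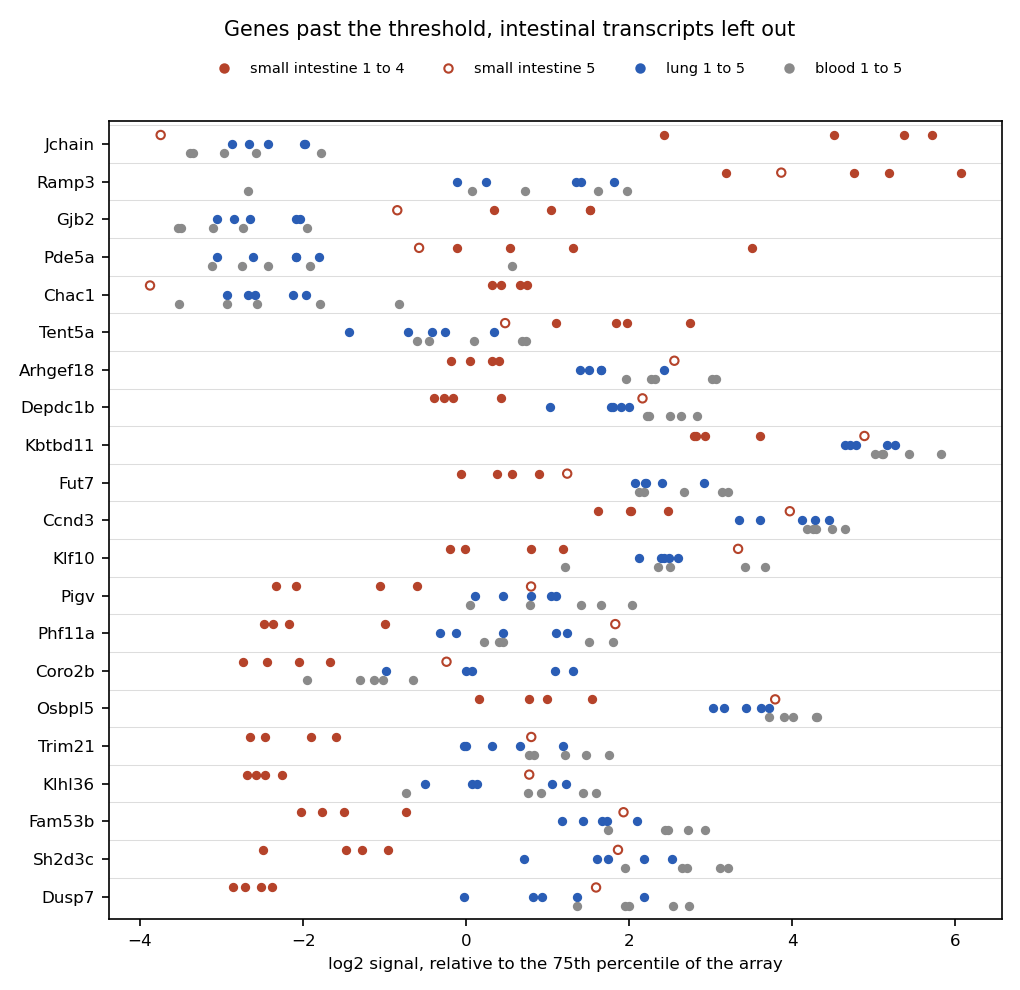
Log2 signal on each array of small intestine 1 to 4, small intestine 5 (open circle), lung 1 to 5 and blood 1 to 5, from top to bottom within a row, for the 6 higher genes other than intestinal transcripts and the 15 lower genes. No row has small intestine 1 to 4 overlapping lung, and blood lies beside lung in most rows.

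Blood and liver arrays, which the comparison with lung did not use, were set beside the same small intestine arrays. For 14 of the 15 lower genes all 5 blood arrays lay above small intestine 1 to 4, and for 15 of 15 the arrays of liver 1 to 4 did so. Over all genes tested those shares were 14.5% and 15.1%. The exception in blood was Coro2b, at -1.95 to -0.65. For 5 of the 6 higher genes other than intestinal transcripts, all blood arrays and all arrays of liver 1 to 4 lay below small intestine, against 3.65% and 6.42% of all genes. Here the exception was Pde5a, with 0.57 on blood 4. Chac1 was counted by a narrow margin, with 0.31 on liver 3 against 0.32 on small intestine 2. These counts share the small intestine arrays with the comparison that chose the genes, so they are no separate test.

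The array labelled small intestine 5 lay nearer to the lung mean than to the mean of small intestine 1 to 4 for 31 of the 33 called genes. For all 15 lower genes it lay above the range of small intestine 1 to 4, and for 9 of them within the lung range, as for Ccnd3 (3.97), Dusp7 (1.59) and Osbpl5 (3.79). Ramp3, at 3.87, lay within the range of small intestine 1 to 4. The array labelled liver 5 was nearer to the mean of small intestine 1 to 4 for 27 of the 33 genes, with 6.57 for Ramp3, 4.33 for Jchain and -2.89 for Dusp7. Sample identity was not tested, and both arrays are kept under their labels.

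The 32 lists of T cell genes held 4 calls, beside 0.46% called over all genes, and are described by their medians relative to that of all genes. The calls were Chac1 (1 of 19 heat shock and unfolded protein response genes), Fut7 (1 of 20 of integrins and adhesion), Arhgef18 (1 of 17 of the circulating cell program) and Ccnd3 (1 of 9 G1 cyclins and CDK inhibitors). The other T cell lists held none, and some genes stand on more than 1 list. Lists of cell division had medians below that of all genes, and so did the T cell receptor and CD8 list, at -0.54, or 0.39 below. Of its 21 genes, 20 lay below the median of all genes, which splits all genes evenly. Of 23 mitosis genes none passed, and 5 lay wholly below lung, against 2.23% of all genes. Among the 23, 12 were lower with an unadjusted limma p under 0.05, against 626 of all 7170 genes in either direction. The list median was 0.67 below that of all genes, at -0.82. Cdc20, which activates the anaphase-promoting complex, had 3.53, 3.25, 3.62 and 3.81 in small intestine, against 5.05, 4.82, 4.99, 4.19 and 4.85 in lung (adjusted p = 0.0926). Ccna2, the cyclin A2 of S phase and G2, averaged 2.81 ± 0.41 in small intestine and 3.93 ± 0.34 in lung (adjusted p = 0.186). Of 33 DNA replication genes none passed either, 29 lay below the median of all genes, and their own median was -0.47, or 0.32 below it. E2f2, a transcription factor of S phase genes, averaged 1.60 ± 0.71 in small intestine and 3.44 ± 0.36 in lung (adjusted p = 0.0625), and Ccne1, the cyclin E1, 0.46 ± 1.42 and 2.68 ± 0.83 (adjusted p = 0.216). On the array labelled small intestine 5 Cdc20 had 4.55 and Ccna2 4.02, both within the lung range.

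The circulating cell program, which lists genes that recirculating T cells are known to keep on, had the lowest median of the T cell lists, at -0.93, or 0.78 below that of all genes. Arhgef18 was the 1 of its 17 measured members that passed, and 5 lay wholly below lung, against 2.23% of all genes. Klf3, a repressor that works beside KLF2, averaged -0.59 ± 0.70 in small intestine and 1.24 ± 0.36 in lung (adjusted p = 0.0625). Klf2, which keeps the exit receptor on, averaged 4.41 ± 0.78 and 5.34 ± 0.88 in the same order, and that receptor, S1pr1, did not pass either (adjusted p = 0.693). Ccr7, the lymph node homing receptor, pointed the other way, with 6.06, 6.21, 7.49 and 5.23 in small intestine, against 5.37, 5.17, 4.58, 4.06 and 5.46 in lung (adjusted p = 0.353). Ccr7 is also on the list of dendritic cell markers, whose levels are given with Cd83 below.

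The tissue residency program, its counterpart, had 0 of 16 members past the threshold, against 0.46% of all genes, and a median of 0.26. Osgin1, an oxidative stress protein, averaged 1.92 ± 0.89 in small intestine and -1.35 ± 1.30 in lung (adjusted p = 0.0635). Xcl1, a chemokine that attracts cross-presenting dendritic cells, had 4.83, 4.49, 5.01 and 4.24 in small intestine, against 3.63, 3.83, 2.45, 2.93 and 3.60 in lung (adjusted p = 0.157). For both genes, 2 of the 16, the small intestine arrays lay wholly above lung, against 0.934% of all genes. Cd69, the classical residency marker, averaged 1.71 ± 1.50 and 2.19 ± 1.18 (adjusted p = 0.962), and Cxcr6 3.79 ± 1.88 and 4.39 ± 0.78 (adjusted p = 0.951), small intestine first in each pair.

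Receptors that guide T cells into the gut and the lung gave no call. Ccr9, the receptor for the small intestinal chemokine CCL25, had 1.86, 0.40, 2.37 and -0.06 in small intestine, against 1.00 on lung 3 and values between -1.25 and -0.15 on the other lung arrays (adjusted p = 0.388). Itga4, the alpha chain of the gut integrin, had 3.81, 2.92, 4.44 and 1.94 in small intestine, against 5.37, 4.59, 5.33, 4.23 and 5.13 in lung (adjusted p = 0.230), and its partner Itgb7 averaged 6.54 ± 0.84 and 7.14 ± 0.31 (adjusted p = 0.762). Thus Ccr9 was the higher and Itga4 the lower of these in small intestine, each with overlapping arrays. Cxcr3, a receptor for interferon-induced chemokines, averaged 3.35 ± 1.57 in small intestine and 5.19 ± 0.68 in lung (adjusted p = 0.373). Ccr10, a receptor for chemokines of skin and mucosal epithelia, had -0.28, -2.67, -2.84 and -2.52 in small intestine, against 1.28, -0.17, 1.86, 0.73 and 0.62 in lung, without overlap (adjusted p = 0.0596).

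Most genes of NF-kB had higher levels in small intestine, and none passed. Of the 14 NF-kB members and feedback genes, 13 had a difference above 0, and 13 lay above the median of all genes. An unadjusted limma p under 0.05 was found for 5 of the 14, against 626 of all 7170 genes in either direction. The list median was 0.42, or 0.57 above that of all genes. Nfkb2, the precursor of p52, had 4.01, 3.72, 4.83 and 1.69 in small intestine, against 2.65, 1.59, 0.66, 1.35 and 1.66 in lung (adjusted p = 0.242), and its partner Relb averaged 3.46 ± 1.19 and 1.96 ± 0.55 (adjusted p = 0.346). Small intestine 4, the array with the lowest T cell level, was also the lowest for both. Small intestine 2 had the next lowest T cell level (3.01, against 2.80 on small intestine 4). It averaged 3.64 on the NF-kB list, against 2.14 on small intestine 4, so the 2 levels did not run together. Costimulatory receptors and ligands pointed both ways, with 6 of 11 differences above 0, 5 below, a median of 0.01 and a range from -1.32 to 2.22. Tnfrsf4, the costimulatory receptor OX40, averaged 5.59 ± 1.28 in small intestine and 3.37 ± 0.96 in lung (adjusted p = 0.214). Cd83, a marker of activated cells, averaged 4.99 ± 1.03 and 2.78 ± 1.45 (adjusted p = 0.311), and Tnfsf11, the cytokine RANKL, 2.22 ± 1.22 and -0.12 ± 0.71 (adjusted p = 0.132). Cd83 and Ccr7 also stand on the list of MHC class II and dendritic cell markers (12 measured genes). That list averaged 4.47, 4.66, 2.26 and 3.71 on small intestine 1 to 4, against 3.22, 3.48, 1.59, 4.19 and 4.07 on lung 1 to 5. The part of such cells in these differences was not tested.

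**Figure D4:**
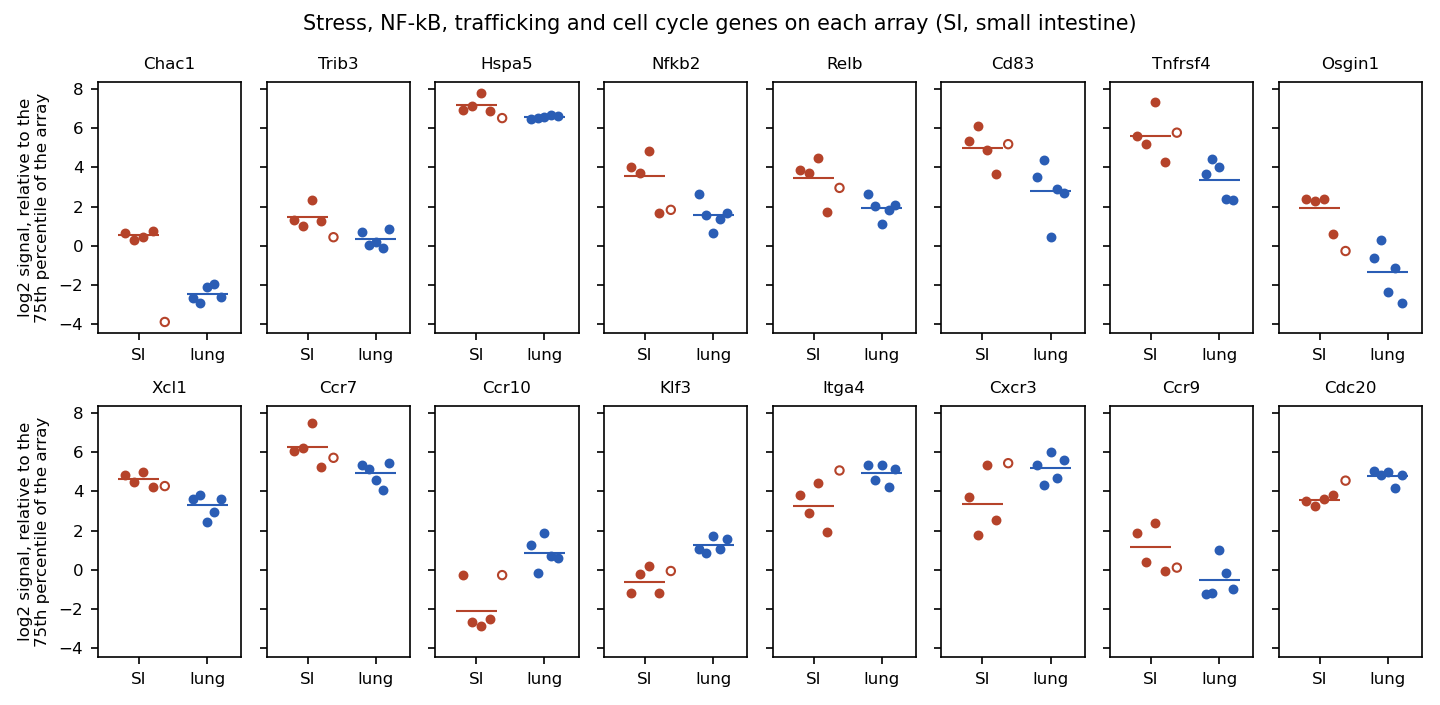
Log2 signal of 16 genes on each array of small intestine (SI, with array 5 as an open circle) and lung, with a bar at the mean of small intestine 1 to 4 or lung 1 to 5. Chac1 is the 1 gene of these that passed the threshold, and Trib3, Hspa5, Osgin1, Xcl1, Ccr10, Klf3 and Cdc20 show no overlap between small intestine 1 to 4 and lung.

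None of the 10 measured cytotoxic effector molecules passed. Their differences ran from -1.79 to 0.38, with 7 below 0, 5 below the median of all genes and a list median of -0.11. Gzma averaged 6.65 ± 0.60 in small intestine and 6.69 ± 0.10 in lung, Gzmb 4.62 ± 1.31 and 4.80 ± 1.15, and Ifng 4.44 ± 1.38 and 4.78 ± 0.92. Their adjusted p-values were 0.989, 0.982 and 0.963, and with an SE of 0.69 for Gzmb this comparison could not resolve a difference of 1 log2 unit. The transcription factors Tbx21 (5.66 ± 0.42 and 5.95 ± 0.42) and Prdm1 (0.32 ± 1.75 and -0.08 ± 1.05), the inhibitory receptor Pdcd1 (5.74 ± 0.59 and 6.06 ± 0.39) and its ligand Cd274 (0.47 ± 0.28 and 0.21 ± 0.41) did not pass. Neither did the immediate early genes Fos, Jun and Dusp1, the cytokine receptors Il7r and Il2ra, the feedback inhibitor Cish, the proliferation marker Mki67, Il17a or Cxcl10. No measured gene of this set had an adjusted p under 0.05.

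Among the remaining T cell lists, annexins and lamins had the third lowest median of lists with at least 5 measured genes (-0.75, with 15 of 16 differences below the median of all genes). Anxa1, which restrains inflammation, averaged 0.66 ± 0.95 in small intestine and 3.40 ± 1.59 in lung (adjusted p = 0.206), and its lung values followed the alveolar macrophage level, with 0.88 on lung 3 and 4.92 on lung 4. Its difference was -2.74 over all 9 arrays and -3.37 without lung 3, where it passed, and that array was set apart by the same macrophage level. The part of macrophages in it was not tested. Lmnb1, lamin B1, averaged 1.94 ± 0.23 and 2.71 ± 0.30 (adjusted p = 0.335). Hk2, the inducible hexokinase, had 2.88, 2.67, 2.11 and 2.31 in small intestine, against 1.84, 1.21, 0.41, -2.02 and -1.18 in lung, without overlap (adjusted p = 0.216). In cholesterol synthesis Msmo1 and Idi1 lay wholly above lung, by 0.86 and 0.60 (adjusted p = 0.388 and 0.471). They were 2 of 14 measured genes of that list, against 0.934% of all genes. The 49 oxidative phosphorylation subunits and 48 mitochondrial ribosomal proteins had medians of -0.10 and -0.13, within 0.06 of that of all genes.

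**Figure D5:**
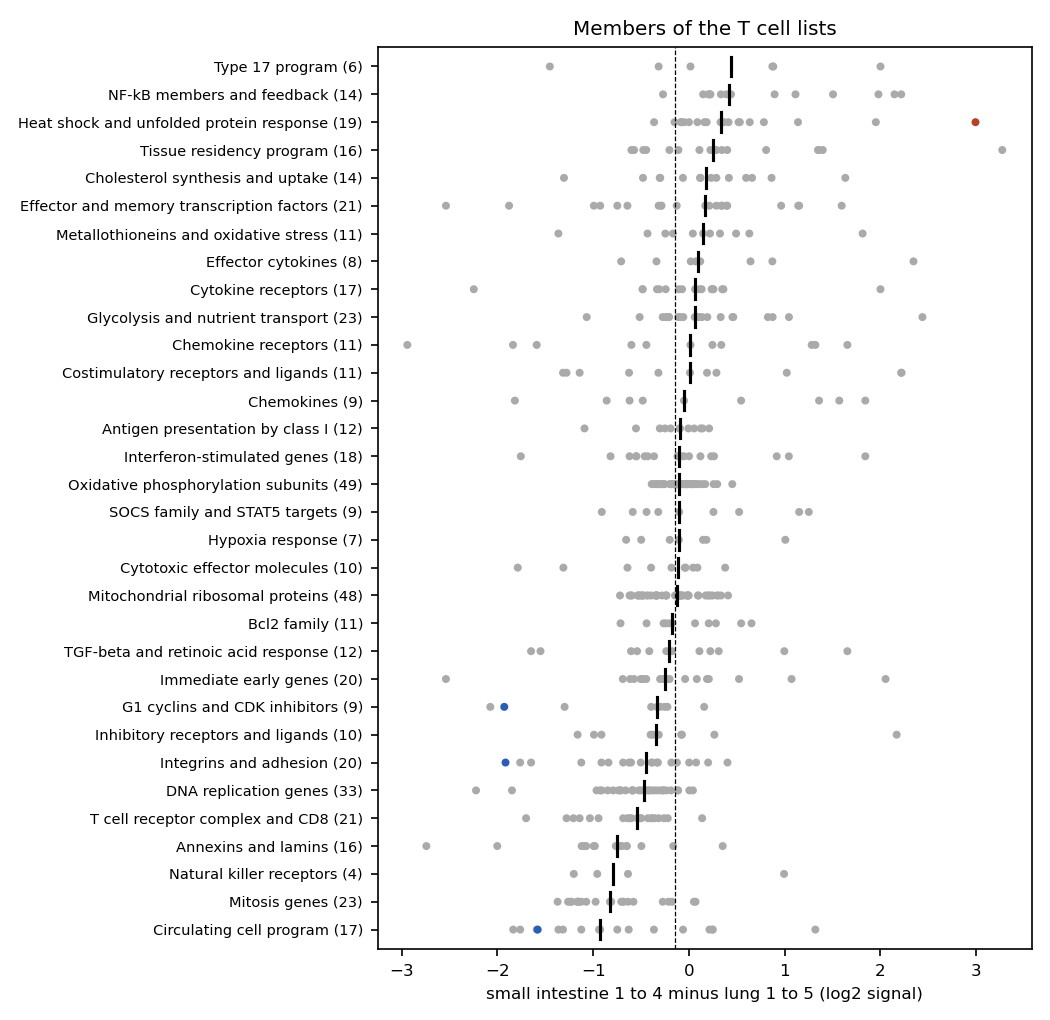
Difference in log2 signal, small intestine 1 to 4 minus lung 1 to 5, for each measured member of the 32 T cell lists, with the number of members in brackets, the list median as a black tick and the median of all genes as a dashed line. Coloured points passed the threshold: Chac1 to the right, and Ccnd3, Fut7 and Arhgef18 to the left.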

How the data were processed

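RNA of CD45.1+ cells went through 2 rounds of amplification and Cy3 labelling for 1-colour Agilent arrays, per the labels' protocols. The deposited scanner files give background-subtracted signal intensity on a linear scale, and per the file headers they come from Feature Extraction 11.0.1.1, while version 10.7 and Partek stand in the submitters' processing notes. The authors' deposited value table holds log2 values, equal to quantile-normalized log2 intensity within a median of 6.31e-05, and served as an alternative.

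Here the log2 intensity minus the 75th percentile of the array was used. Spots of a probe were averaged, leaving out controls and those marked non-uniform. RefSeq accessions (GRCm38.p6) named 27508 of 39429 probes, over 20886 genes, and the brightest probe stood for each of 5512 genes with several. Tested genes had signal well above background on 3 or more of 4 small intestine arrays or 4 or more of 5 lung arrays. This kept 7171 genes, of which 1 had a missing value and was not tested. The test was limma's (version 3.58.1, R 4.3.3, lmFit and eBayes, two-sided, 7 residual degrees of freedom, Benjamini-Hochberg at 0.05). The procedure was also run on simulated data with independent noise, which lack the shared slides of these arrays and so do not bear on the calls. The number of arrays limits the precision. Lists of genes (32 of T cells, 19 of other cells) are described by counts and medians, with no test. The arrays, the lists and the rule for named genes were chosen with earlier results of these data known.

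Named were the 12 largest increases and decreases among called genes that differed by 1 log2 unit or more without overlap, the other called genes, up to 4 called and 2 uncalled members of a T cell list, up to 4 members of a list of other cells, and T cell genes set by name, 1 of which is not reported here. Of the 10 called alpha-defensins, 7 (Defa27, Defa32, Defa36, Defa38, Defa39, Defa40 and Defa42) are not on the Paneth list and were set beside it after their values were seen. Each slide held the arrays of 1 replicate number. Same-numbered small intestine and lung arrays deviated together (correlations 0.476, 0.351, 0.406 and 0.508), and unlike-numbered pairs ran from -0.642 to 0.335. A shared slide and a shared animal cannot be told apart here, so whether the numbers pair the samples was not tested. The main fit does not use the replicate number, and 15 of its called genes lost the call with the block. Alternatives covered the arrays in the fit, the block, scaling, filter, probes of a gene, variance model and array weights, and each array left out. The normexp background correction used median spot signals in place of the planned mean signals.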

Additional observations from a re-analysis of the deposited data

Results flagged for a closer look

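Each group of 4 or 5 arrays was checked for an array far from the others, over 164 groups of values, and chance alone marks about 1 in 20. This marked 8 values. Arhgef18 had 2.42 on lung 1, against 1.40 to 1.65 on the other lung arrays. Depdc1b had 1.03 on lung 4, against 1.77 to 1.99 on the others. Kbtbd11 had 3.60 on small intestine 3, against 2.80 to 2.93 on small intestine 1, 2 and 4. The chemokine list averaged 0.99 on lung 3, against 2.55 to 2.91 on the others, the circulating cell program 1.92 on lung 4, against 2.97 to 3.30, and costimulatory receptors and ligands 2.48 on lung 4, against 3.02 to 3.22. NF-kB members and feedback averaged 2.14 on small intestine 4, against 3.64 to 3.85 on small intestine 1 to 3. B cell markers averaged 1.55 on small intestine 3, against 2.12 to 2.15 on the other 3.

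Liver arrays lay outside the comparison, and 1 of them carried intestinal transcripts. On the array labelled liver 5, Paneth cell markers averaged 1.78 and small intestinal epithelium markers 1.02, against -2.23 to -1.87 and -1.51 to -1.14 on liver 1 to 4. The reason was not tested.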

How the results depend on the processing

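The count of 33 genes (18 higher, 15 lower) depended on the arrays in the fit. With small intestine 5 included it was 0 (0 higher, 0 lower), with all 20 arrays in 1 fit 14 (2 higher, 12 lower), with 4 sites without small intestine 5 127 (45 and 82), and without liver 5 as well 221 (73 and 148), which held all 33. Array weights, which gave small intestine 1 a weight of 8.44, gave 606 (229 and 377). Quantile normalization gave 50 (27 and 23), the background correction on median signals 20 (12 and 8), a filter of 5 of 9 arrays 9 (4 and 5), and a filter of all 9 arrays 16 (4 and 12). Scaling over probes that all 9 arrays measured well above background gave 24 (16 and 8), and with small intestine 5 as well, an alternative chosen after seeing the data, 4 (4 higher, 0 lower). The causes were not tested. Leaving out 1 array in turn gave 16 to 99 genes (10 to 45 higher, 6 to 54 lower), with 16 without lung 5, 18 without small intestine 2, 20 without small intestine 1 or lung 2, 21 without lung 1, 47 without lung 3 (16 and 31), 52 without small intestine 4 and 99 without small intestine 3. The replicate block gave 22 (12 and 10) and changed the calls given beside their genes, of which Irf4 and Flt1 gained one. Of the 21 called genes that are not intestinal transcripts, 8 passed with the block, with the other scaling and without any 1 array: Jchain, Gjb2, Chac1, Dusp7, Sh2d3c, Fam53b, Klhl36 and Osbpl5. All of these but Osbpl5 entered the test through 1 site alone.

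No called gene changed sign, and 12 of 62 uncalled ones did, without a call on either side. Gzmb was 0.0722 and Mki67 0.12 with small intestine 5 included and with all 20 arrays, and Il2ra -0.27 with the replicate block, also over replicates 1 to 4. Gzma was 0.16 and Gzmb 0.0195 with the other scaling. With that scaling and small intestine 5, Gzma was 0.10, Gzmb 0.28, Mki67 0.33, Pdcd1 0.0702 and Cd8a 0.20. Array weights gave Gzma 0.14, Gzmb 0.0252, Cd69 0.0136, Dusp1 0.14 and Mki67 0.38. With 1 array left out, Prdm1 ran from -0.0103 to 1.26, Il2ra from -0.27 to 0.89, Gzma from -0.29 to 0.13, Gzmb from -0.71 to 0.25, Cxcr6 from -1.42 to 0.11, Mki67 from -0.79 to 0.28, Il7r from -0.48 to 1.01, Ifng from -0.78 to 0.30, Cd69 from -0.93 to 0.18, Dusp1 from -0.53 to 0.0740 and Cd8a from -0.86 to 0.0942. Of 49 list levels, those of cholesterol synthesis and uptake (0.38) and of metallothioneins and oxidative stress (0.33) moved by more than 1 SD with the other scaling, the 1 alternative run for them, and 14 changed sign. Genes not well above background at 1 site carry bounds only, so the size of their differences is limited by signal over background.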

Other observations

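Neutrophil markers averaged between 1.01 and 1.66 on small intestine 1 to 4 and between 1.22 and 3.66 on lung 1 to 5. S100a8, a calcium-binding protein of neutrophils, had -2.47, -2.77, -2.50 and -2.58 in small intestine, against -0.30, 2.11, -2.33, 0.45 and 0.29 in lung (limma, adjusted p = 0.187). The type 17 list had the highest median of the T cell lists, at 0.44 over 6 measured genes, with none past the threshold, and Il17a, the cytokine that names it, averaged 1.52 ± 0.93 in small intestine and 0.65 ± 0.79 in lung (adjusted p = 0.723). Of 15 B cell markers only 2 were bright enough to be tested, with differences of -0.85 and 0.66. Their average was 1.99 ± 0.29 in small intestine and 2.08 ± 0.58 in lung, which cannot show whether B cell content was alike.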
